A study of Mus musculus with 7 samples.

Results

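The receptors described here are the adrenergic receptors, which bind noradrenaline and adrenaline, and the A1 adenosine receptor. A locus of the deposited group table was taken as a member when its gene field named Adrb1, Adrb3, Adra1a, Adra1b, Adra1d, Adra2a, Adra2b, Adra2c or Adora1. All 9 genes were found, each at 1 locus that named no other gene, among 35534 loci in the table. RNA-seq was run on gonadal adipose tissue of male CD1 pups on postnatal day 21. In the BDE-47 group, 4 pups came from dams fed BDE-47 (2,2′,4,4′-tetrabromodiphenyl ether, a brominated flame retardant) in tocopherol-stripped corn oil at 0.2 mg/kg each day. In the control group, 3 pups came from dams given the oil alone. In both groups the dams were dosed from day 8 of pregnancy until the pups were 21 days old, so any exposure of the pups came through their dams. Each pup came from a different litter, and the authors dropped 1 more control library for its low read number. The authors combined the libraries of a group into 1 FPKM (a read density corrected for transcript length and sequencing depth), so the spread between pups and the depth of each library are not known from the values used here. No p-value, interval or SD is given for that reason, and "higher" and "lower" below compare 2 group values.

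Catecholamines act on fat cells through receptors that differ in their G protein. The β-adrenergic receptors couple to Gs, which activates adenylyl cyclase, raises cAMP and turns on protein kinase A and lipolysis. The α2-adrenergic receptors and the A1 adenosine receptor couple to Gi, which inhibits the cyclase and restrains lipolysis, and the α1-adrenergic receptors couple to Gq, which releases calcium. In rodents the β3 receptor is found mainly on adipocytes, whereas the β1 receptor is best known from the heart and the α1 receptors from smooth muscle and, in rodents, the liver.

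Regulatory sequence next to the start of transcription is shown for the member with the highest level among those with a RefSeq entry in each receptor class, to set the base composition and motifs of the classes side by side. RefSeq promoters on GRCm38.p6, the assembly also called mm10, were found for 6 of the 9 genes, and Adrb3, Adra1a and Adra1d had no entry. Each sequence is the 250 bases before the RefSeq start nearest to the end of the deposited locus, read 5′ to 3′ on the strand of the gene. Capitals mark matches, on either strand, to 6 short motifs. The TATA box was searched as TATAAA, and the CCAAT box by its own letters. The GC box, which binds Sp1-type factors, was searched as GGGCGG. The cAMP response element, to which CREB binds, was searched as TGACGTCA. The nuclear receptor half-site was searched as AGGTCA, and the E-box, a site of basic helix-loop-helix factors, as CACGTG. No base fell in more than 1 match.
Adora1, chr1:134235458-134235707, minus strand: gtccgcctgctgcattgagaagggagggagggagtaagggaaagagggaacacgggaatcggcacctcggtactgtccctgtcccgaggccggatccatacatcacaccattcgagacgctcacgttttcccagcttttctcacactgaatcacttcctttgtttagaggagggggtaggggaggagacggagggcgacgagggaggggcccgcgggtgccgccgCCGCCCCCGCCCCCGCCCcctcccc
Adrb1, chr19:56721867-56722116, plus strand: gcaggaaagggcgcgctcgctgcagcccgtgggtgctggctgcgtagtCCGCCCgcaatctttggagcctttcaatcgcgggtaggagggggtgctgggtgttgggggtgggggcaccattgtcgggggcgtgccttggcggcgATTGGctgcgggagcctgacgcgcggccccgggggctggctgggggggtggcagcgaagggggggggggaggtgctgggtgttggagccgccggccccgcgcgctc
Adra2a, chr19:54045009-54045258, plus strand: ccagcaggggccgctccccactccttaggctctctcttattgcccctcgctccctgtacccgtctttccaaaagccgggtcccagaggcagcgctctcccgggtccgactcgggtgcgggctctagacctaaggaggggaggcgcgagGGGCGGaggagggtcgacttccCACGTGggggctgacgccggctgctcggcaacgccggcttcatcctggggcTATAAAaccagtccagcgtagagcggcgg
Adra1b, chr11:43901238-43901487, minus strand: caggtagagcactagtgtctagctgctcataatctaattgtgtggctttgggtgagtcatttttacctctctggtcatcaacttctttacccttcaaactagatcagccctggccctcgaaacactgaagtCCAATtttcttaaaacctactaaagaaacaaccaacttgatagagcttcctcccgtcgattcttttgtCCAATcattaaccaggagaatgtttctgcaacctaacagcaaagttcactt

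The 4 windows differed in CpG content. Adora1 had 19 CpG dinucleotides, Adrb1 24, Adra2a 22 and Adra1b 3, while the median over 32851 RefSeq promoter windows was 6, with quartiles of 2 and 16. The Adora1 window held 3 GC boxes, the nearest of them 8 to 13 bases before the start. The Adra2a window held a TATA box 24 to 29 bases before the start, a GC box and an E-box. The Adrb1 window held a GC box and CCAAT on the other strand, and the Adra1b window held CCAAT at 2 places. Of all windows, 32.7% held a GC box, 33.8% CCAAT, 12.4% a TATA box, 14.0% the half-site, 6.02% the E-box and 1.55% the cAMP response element. None of the 4 windows printed held the cAMP response element or the half-site, which says only that these letters are not in these windows. The Adora1 and Adra1b loci of the table ended exactly at the RefSeq start, whereas the Adrb1 locus began 255 bases and the Adra2a locus 77 bases from it.

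The β3-adrenergic receptor gene dominated the receptor RNA of this tissue in both groups. Adrb3 had a group value of 249 FPKM in BDE-47-exposed fat and 208 FPKM in control fat, a log2 ratio of 0.26 (1.20-fold). It was higher than 97.8% of the 14262 named loci with more than 1 FPKM in at least 1 group (the filter of the study's methods) in exposed fat, and higher than 97.3% in control fat. Adrb3 made up 86.4% of the FPKM summed over the 9 receptors in exposed fat and 85.1% in control fat. The deposited locus covers mm10 chr8:27225745-27242252, and GENCODE vM21 places the gene at chr8:27225776-27250616 on the minus strand. The same span is given for 3 loci with no gene name, which were at 7.01, 5.62 and 3.94 FPKM in exposed fat and at 3.56, 3.16 and 2.20 FPKM in control fat, each under 2-fold. Exons of Gm45470, on the plus strand, overlap those of Adrb3, and since the strand setting of the counting is not given in the sources used here, reads of the overlapping genes may not be told apart.

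Adrb1, the other β receptor gene among the members, was at a low level. It had 2.33 FPKM in exposed fat and 1.83 FPKM in control fat, a log2 ratio of 0.35 (1.27-fold). Adrb3 therefore held 99.1% of the FPKM of both β genes in exposed and in control fat. The ratio of Adrb3 to Adrb1 was 107 in exposed fat and 114 in control fat on the FPKM scale, which is per length of transcript. The Adrb1 locus lies at mm10 chr19:56722372-56724862, inside the GENCODE gene at chr19:56722199-56733113 on the plus strand.

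The A1 adenosine receptor gene had the second largest share. Adora1 was at 23.6 FPKM in exposed fat and 20.8 FPKM in control fat, a log2 ratio of 0.18 (1.13-fold). It made up 8.18% of the summed receptor FPKM in exposed fat and 8.52% in control fat. Its locus, mm10 chr1:134193448-134235457, shares its span with Mybph, a muscle gene on the plus strand whose exons overlap those of Adora1. Mybph was at 0.188 FPKM in exposed fat and 0.16 FPKM in control fat, far below Adora1.

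Of the α1-adrenergic receptor genes, Adra1d and Adra1a passed the filter. Adra1d was at 6.68 FPKM in exposed fat and 7.73 FPKM in control fat, a log2 ratio of −0.21, and was the member with a lower value in exposed fat. Adra1a was at 4.20 FPKM in exposed fat and 4.14 FPKM in control fat, a log2 ratio of 0.02. Adra1b did not pass the filter, at 0.92 FPKM in exposed fat and 0.847 FPKM in control fat. Summed, the α1 genes had 11.8 FPKM in exposed fat and 12.7 FPKM in control fat, or 4.09% of the receptor total in exposed fat and 5.20% in control fat. The span given for the Adra1d locus, mm10 chr2:131127412-131604824, is 477413 bases long and is shared with 14 other loci, whereas GENCODE places Adra1d at chr2:131545850-131562283 on the minus strand, with exons overlapped by Gm14285 on the plus strand. The Adra1a locus covers chr14:66635251-66771168 (plus strand) and the Adra1b locus chr11:43774605-43901237 (minus strand).

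The α2-adrenergic receptor genes were the lowest of the set, and none passed 1 FPKM in either group. Adra2a was at 0.717 FPKM in exposed fat and 0.555 FPKM in control fat, a log2 ratio of 0.37. Adra2c was at 0.432 FPKM in exposed and 0.285 FPKM in control fat, a log2 ratio of 0.60. Adra2b had 0.330 FPKM in exposed and 0.198 FPKM in control fat (log2 ratio 0.74). These 3 values were higher in exposed fat, at levels where ratios of named loci spread widely. Of 6045 named loci that were above 0 in both groups and at most 1 FPKM in both, 16.8% were at least 2-fold higher and 17.5% at least 2-fold lower in exposed fat. At a threshold of 1.5-fold, 26.8% of them were higher and 27.0% lower. With 1 FPKM added to both groups, the log2 ratios of Adra2a, Adra2b and Adra2c were 0.14, 0.15 and 0.16. The loci lie at mm10 chr19:54045182-54048982 (Adra2a), chr2:127363286-127367221 (Adra2b) and chr5:35278566-35281763 (Adra2c), all on the plus strand and each a single exon block in GENCODE.

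**Figure D1:**
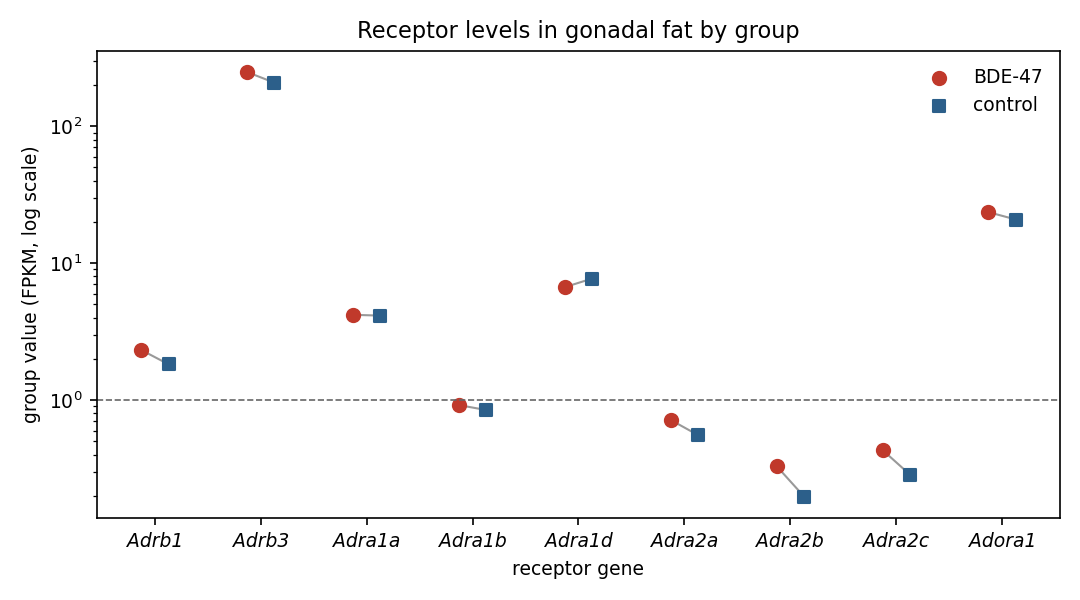
Group values of the 9 receptor genes in FPKM on a log axis, with BDE-47 as circles on the left of each pair and control as squares on the right; each point is the authors' single value for the group, with no error bar, and the dashed line marks 1 FPKM. Adrb3 stood at 249 FPKM in exposed fat and 208 FPKM in control fat, Adora1 at 23.6 FPKM in exposed and 20.8 FPKM in control fat, and the 3 α2 genes and Adra1b under 1 FPKM in both groups.

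The receptors had the same order of level in both groups. From high to low it was Adrb3, Adora1, Adra1d, Adra1a, Adrb1, Adra1b, Adra2a, Adra2c and Adra2b. Whether neighbours in this order differ beyond the spread between pups could not be tested with 1 value per group.

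No receptor differed 2-fold. Of the 9 members, 5 passed the filter, and 0 of these were at least 2-fold higher and 0 at least 2-fold lower in exposed fat. Among all 14262 loci passing the filter, 1.04% had values at least 2-fold higher and 4.24% at least 2-fold lower, so a count of 0 among 5 loci is near the background. At 1.5-fold, 0 of the 5 passed in either direction, against 2.73% of all loci higher and 8.00% lower. The median log2 ratio of the 5 receptors was 0.18, with 4 above 0 and 1 below, and that of all loci past the filter was 0.01.

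Set beside loci of similar level, Adra1a lay between the quartiles of its class and the other 4 receptors past the filter lay outside them. Among the 817 loci with a mean over 100 FPKM, the quartiles of the log2 ratio were −0.17 and 0.06 and the 90th percentile was 0.20, so Adrb3, at 0.26, lay above the 90th percentile. Among the 3118 loci between 20 and 100 FPKM, the upper quartile was 0.12 and the 90th percentile 0.23, and Adora1, at 0.18, lay between them. Among the 5407 loci between 5 and 20 FPKM, the 10th percentile was −0.32 and the lower quartile −0.10, and Adra1d, at −0.21, lay between those. Among the 4830 loci past the filter with a mean of at most 5 FPKM, the upper quartile was 0.17 and the 90th percentile 0.40, with Adrb1 at 0.35 and Adra1a at 0.02. These percentiles describe how the group values of all genes spread and are not a test of the exposure.

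**Figure D2:**
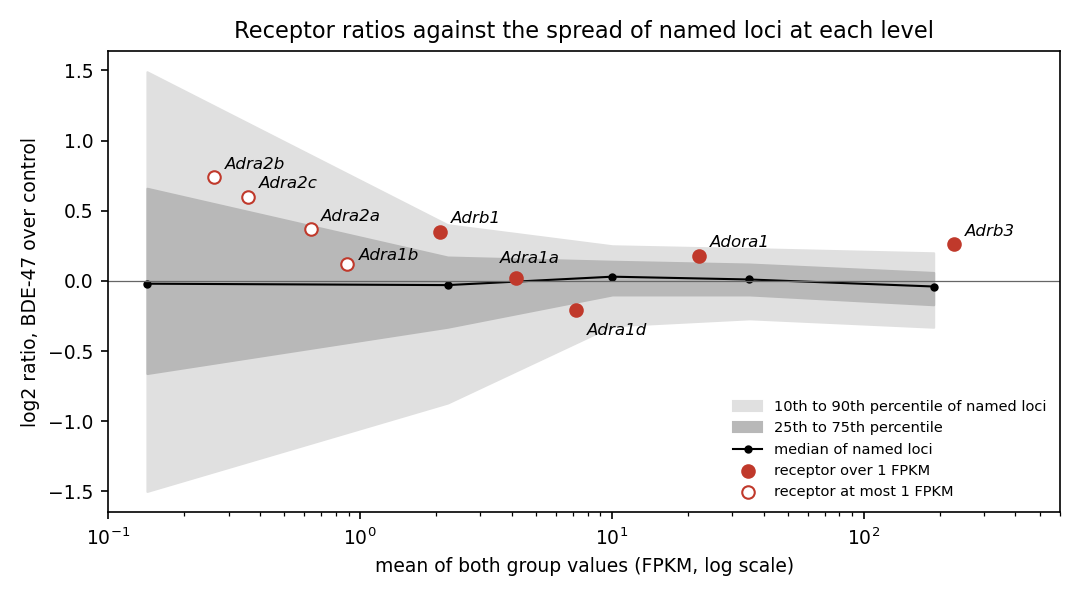
Log2 ratios, BDE-47 over control (vertical axis), against the mean of both group values in FPKM (horizontal log axis) for the 9 receptors, with shaded bands for the 25th to 75th and the 10th to 90th percentile of named loci in 5 classes of level, drawn at the median level of each class. Adrb3, at a log2 ratio of 0.26, lies above the 90th percentile of its class (0.20), and the receptors under 1 FPKM (open circles) lie where the bands are wide.

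Among the members, the ratio of Gs- to Gi-coupled receptor RNA was close in both groups. Adrb1 and Adrb3 together had 251 FPKM in exposed fat and 210 FPKM in control fat. Adora1 and the α2 genes together had 25.1 FPKM in exposed fat and 21.9 FPKM in control fat. The Gs sum was 10.03 times the Gi sum in exposed fat and 9.60 times in control fat, and the log2 difference between these ratios was 0.06. A ratio within a group does not depend on how the groups were scaled to each other. Most of the Gi sum was Adora1, and most of the Gs sum was Adrb3. With the other receptors compared below added by their main coupling, 10 Gs loci summed to 360.1 FPKM in exposed fat and 297 FPKM in control fat, and 11 Gi loci to 179 FPKM in exposed fat and 176 FPKM in control fat. The Gs sum was then 2.01 times the Gi sum in exposed fat and 1.69 times in control fat, a log2 difference of 0.25, in sums chosen after the values were seen.

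Among 24 G protein-coupled receptor loci compared, the 9 members and 15 others known in fat cells or binding adenosine, Adrb3 had the highest value in both groups. The next was Tshr, the thyrotropin receptor gene, at 71.0 FPKM in exposed fat and 52.0 FPKM in control fat, and Adrb3 was 3.51 times as high in exposed fat and 4.00 times as high in control fat. Adora1 was 8th in both groups, behind Tshr, the succinate receptor gene Sucnr1 (44.0 FPKM in exposed and 35.02 FPKM in control fat), the prostaglandin E receptor gene Ptger3 (37.8 FPKM in exposed and 38.1 FPKM in control fat) and others. The other adenosine receptor genes were lower than Adora1. Adora2a, which couples to Gs, was at 4.89 FPKM in exposed fat and 4.72 FPKM in control fat, and Adora2b was at 0.883 FPKM in exposed and 1.13 FPKM in control fat. The locus that joins Adora3 with Tmigd3 was at 0.167 FPKM in exposed fat and 0.304 FPKM in control fat.

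Of the 12 other receptors known in fat cells, 1 was at least 2-fold higher and 0 were at least 2-fold lower in exposed fat. The higher one was Mc5r, a melanocortin receptor gene, at 1.28 FPKM in exposed fat and 0.559 FPKM in control fat. Npy1r, a neuropeptide Y receptor gene, had 1.59 FPKM in exposed fat and 0.818 FPKM in control fat (log2 ratio 0.96). Gcgr, the glucagon receptor gene, which is best known from the liver, had 0.747 FPKM in exposed and 1.36 FPKM in control fat (log2 ratio −0.86). Its other loci were at 0.203 and 0.137 FPKM in exposed fat and at 0.841 and 0.785 FPKM in control fat, and summed over its loci Gcgr had a log2 ratio of −1.46, so that 1 receptor of the list was then at least 2-fold lower. With 1 FPKM added to both groups, the log2 ratio of Mc5r was 0.55 and it no longer passed 2-fold. All 3 were near 1 FPKM, where ratios are wide. Mc5r and Npy1r passed the filter only through exposed fat, and Gcgr only through control fat.

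Of the genes that act after the receptors, 54 loci in 8 lists passed the filter, of which 0 were at least 2-fold higher and 2 (3.70%) at least 2-fold lower, against 1.04% and 4.24% of all loci, so the counts are near the background. Their median log2 ratio was 0.03, against 0.01 over all loci. The 2 lower loci were Pde4c and a Nr4a2 locus listed at 0 in exposed fat, and both are described below with the other locus of the gene. Among the G protein α subunits, 0 of 7 differed 2-fold. Gnas, the gene of Gsα, was at 744 FPKM in exposed fat and 695 FPKM in control fat, and the Gi genes Gnai2 and Gnai1 were at 252 and 159 FPKM in exposed fat and at 267 and 143 FPKM in control fat. Among the adenylyl cyclases, which make cAMP, 0 of 7 differed 2-fold. Adcy5 was at 51.6 FPKM in exposed fat and 58.1 FPKM in control fat, Adcy6 at 44.3 FPKM in exposed and 38.9 FPKM in control fat, and Adcy7 at 7.52 FPKM in exposed and 10.9 FPKM in control fat. Adcy8 was the member past 1.5-fold, at 0.722 FPKM in exposed and 1.22 FPKM in control fat.

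Protein kinase A subunits and cAMP phosphodiesterases were also mostly close between the groups. Of 6 kinase subunit genes, 0 differed 2-fold, with Prkar2b, the RIIβ subunit typical of fat, at 256.0 FPKM in exposed fat and 278 FPKM in control fat. Prkar1a was at 96.3 FPKM in exposed and 85.0 FPKM in control fat and Prkaca, a catalytic subunit, at 84.4 FPKM in exposed and 85.6 FPKM in control fat. Of 9 phosphodiesterase genes, 1 was at least 2-fold lower. Pde3b, the enzyme through which insulin lowers cAMP in fat cells, was at 79.3 FPKM in exposed fat and 68.1 FPKM in control fat, Pde8a was at 11.2 FPKM in exposed and 12.8 FPKM in control fat, and Pde7a at 9.45 FPKM in exposed and 10.8 FPKM in control fat. The gene past the threshold was Pde4c, at 1.30 FPKM in exposed fat and 3.48 FPKM in control fat, whose other locus was at 0.986 FPKM in exposed and 1.29 FPKM in control fat. With 1 FPKM added to both groups its log2 ratio was −0.96, under 2-fold.

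Of 8 genes that switch receptors off, 0 differed 2-fold and 1 in each direction passed 1.5-fold. Adrbk2, a receptor kinase gene, was at 5.78 FPKM in exposed fat and 3.78 FPKM in control fat, a log2 ratio of 0.61. Rgs2, which shortens G protein signals, had 6.36 FPKM in exposed and 9.71 FPKM in control fat (log2 ratio −0.61). Adrbk1, the kinase first named for the β receptor, was at 24.4 FPKM in exposed and 26.2 FPKM in control fat, Arrb1 (β-arrestin 1) at 19.3 FPKM in exposed and 22.9 FPKM in control fat, and Grk6 at 19.4 FPKM in exposed and 19.0 FPKM in control fat.

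Genes that supply or remove the ligands were measured in the same table. Of 5 catecholamine genes past the filter, 1 was at least 2-fold lower, against 4.24% of all loci past the filter. Maob (monoamine oxidase B) was at 38.1 FPKM in exposed and 30.5 FPKM in control fat, and the uptake transporter gene Slc22a3 at 34.8 FPKM in exposed and 32.9 FPKM in control fat. Ddc, a decarboxylase of catecholamine synthesis, was the lower gene, at 0.415 FPKM in exposed and 1.08 FPKM in control fat. Ddc passed the filter only through control fat. With 1 FPKM added its log2 ratio was −0.56, under 2-fold. Th, which encodes the rate-limiting enzyme of that synthesis, was listed at 0 in exposed fat and was at 0.0105 FPKM in control fat. Among the other catecholamine genes under the filter, Pnmt, Slc18a2 and Slc6a2 had log2 ratios of 1.29, 0.78 and 0.75. Slc18a1 and Dbh had −1.18 and −0.05. Of 8 adenosine genes, 0 differed 2-fold. The locus that joins Pnp and Pnp2 was at 48.5 FPKM in exposed and 38.9 FPKM in control fat, Adk (adenosine kinase) at 38.9 FPKM in exposed and 41.9 FPKM in control fat, and Entpd2, an ATP-degrading enzyme of the cell surface, at 27.9 FPKM in exposed and 27.1 FPKM in control fat. Ada (adenosine deaminase) was at 2.64 FPKM in exposed fat and 4.89 FPKM in control fat, a log2 ratio of −0.89.

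Lipolysis genes and thermogenic target genes of β-adrenergic signalling were listed apart, and the lists differ in level. In control fat the lipolysis genes ran from 44.9 to 2856 FPKM and the thermogenic genes from 0.182 to 114.6 FPKM. Ratios spread more at low levels, so the spread of these lists was not compared. Of 8 lipolysis genes, 0 differed 2-fold, and their median log2 ratio was 0.02. Pnpla2, which encodes adipose triglyceride lipase, had 724 FPKM in exposed fat and 771 FPKM in control fat. The lipid droplet genes Cidec and Plin1 were at 2487 and 826 FPKM in exposed fat and at 2856 and 792 FPKM in control fat. Of 4 thermogenic genes past the filter, 0 differed 2-fold and 1, Prdm16, was at least 1.5-fold lower. Their median log2 ratio was −0.24, and Prdm16 passed the filter only through control fat. Cidea was at 12.5 FPKM in exposed and 8.34 FPKM in control fat, Cox8b at 85.6 FPKM in exposed and 114.6 FPKM in control fat, Cox7a1 at 22.6 FPKM in exposed and 23.8 FPKM in control fat, and Prdm16 at 0.727 FPKM in exposed and 1.11 FPKM in control fat. The log2 ratio of Cidea was 0.58, above the 90th percentile of its class of level (0.25), and that of Cox8b was −0.42, below the 10th percentile of its class (−0.33). Ucp1, the uncoupling protein gene of brown fat, did not pass the filter, at 0.349 FPKM in exposed fat and 0.192 FPKM in control fat. Elovl3, Ppargc1a and Dio2 did not pass it either, with log2 ratios of 0.86, 0.55 and −0.33. The log2 ratio of Ucp1 was 0.86. With the genes under the filter let in, the median of the thermogenic list was positive, so its sign depends on the filter.

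Of 5 cAMP-responsive genes past the filter, 1 counted as lower. Crem was at 7.26 FPKM in exposed fat and 6.45 FPKM in control fat, and Per1 at 9.92 FPKM in exposed and 9.45 FPKM in control fat. The lower one was a Nr4a2 locus listed at 0 in exposed fat and at 49.9 FPKM in control fat, while the other Nr4a2 locus was at 0.339 FPKM in exposed and 0.349 FPKM in control fat, so no fold is given for this gene.

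**Figure D3:**
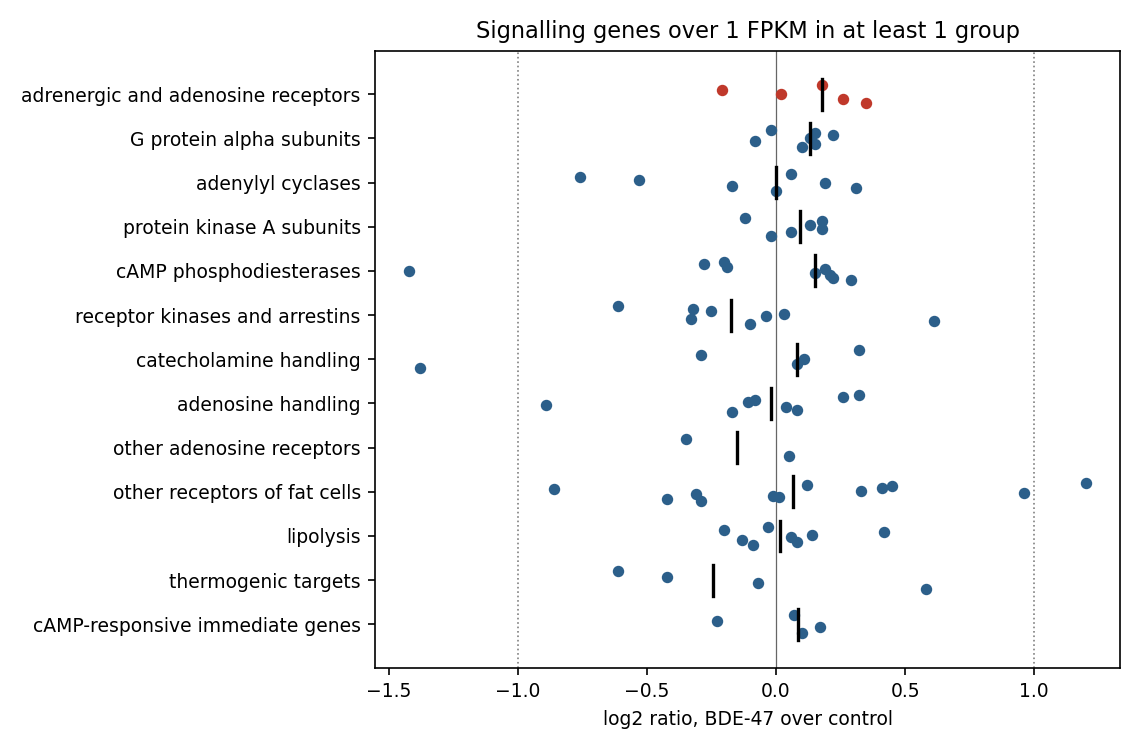
Log2 ratios of BDE-47 over control for the receptors (red) and for 12 lists of signalling genes (blue), with 1 point per locus over 1 FPKM in at least 1 group and above 0 in both, black bars at the medians and dotted lines at 2-fold. The points past 2-fold are Mc5r (1.20), Pde4c (−1.42) and Ddc (−1.38), and the 5 receptors lie between −0.21 and 0.35.

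Markers of several cell types differed between the groups, and their part in the receptor values was not tested. Adipocyte markers, which define this tissue, were high in both groups: the 8 markers summed to 48721 FPKM in exposed fat and 48049 FPKM in control fat, with a median log2 ratio of 0.07. Of 9 hepatocyte markers, 8 were at least 2-fold lower in exposed fat, with sums of 224 FPKM in exposed fat and 858 FPKM in control fat, while Adra1b, which the mouse liver also expresses, had a log2 ratio of 0.12. Of 7 smooth muscle markers past the filter, 3 were at least 2-fold higher, with sums over the list of 369 FPKM in exposed fat and 329 FPKM in control fat, while Adra1a and Adra1d had log2 ratios of 0.02 and −0.21. Of 6 macrophage markers, 3 were at least 1.5-fold lower, and of 6 endothelial markers all were above 0, with a median log2 ratio of 0.34. Epididymis markers summed to 0.384 FPKM in exposed fat and 24.0 FPKM in control fat. Among the nerve and Schwann cell markers, S100b, which adipocytes also express, was at 59.7 FPKM in exposed fat and 6.54 FPKM in control fat, and Sox10 was at 0.351 FPKM in exposed and 0.0352 FPKM in control fat. Fewer cells of a type and less RNA per cell cannot be told apart in whole tissue.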

How the data were processed

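Reads were filtered, trimmed and split by index in BaseSpace, then aligned to mm10 (TopHat2), and the authors ran Cufflinks 2.1.1 and Cuffdiff 2.1.1 on them, as the study's methods and the submitters' processing notes state. Which annotation, strand setting and scaling between libraries they used is not given in the sources used here. Per the deposited table's headers, it holds 1 log2 FPKM per group and locus, with a group at 0 FPKM listed at −10, and 1 line was empty. Its columns of the authors' own comparison, a log2 ratio, a q-value and a significance mark, were not used, and 0 columns of single mice were left unused. Locus starts in the table count from 0 and are printed here counted from 1.

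From the group columns, FPKM and log2 ratios (BDE-47 minus control, no pseudocount) were computed, and a change was counted at 2-fold or more among named loci over 1 FPKM in at least 1 group. Of several loci of a gene, the one with the highest mean was taken. No test was run, because pups have no values of their own here. The counting was tested on simulated data that left out loci of low level. That check does not cover the levels of Adrb1, Adra1b and the α2 genes. The members and gene lists were chosen with earlier results of these data known. In each list, the 3 genes with the highest mean and those past 1.5-fold were named, and other genes beside them were chosen after their values were seen. The values of 1 gene that this rule names are not reported here. Alternatives changed pseudocount, scaling, locus, filter and fold. Python 3.11.15, pandas 2.3.3, numpy 2.4.6 and matplotlib 3.10.9 were used.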

Additional observations from a re-analysis of the deposited data

How the results depend on the processing

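The counts of receptors past 2-fold, 0 in each direction, stayed at 0 with 0.1 or 1 FPKM added to both groups and with both other scalings. They also stayed at 0 with summed loci, loci of 1 name, no filter, a filter of 5 FPKM and at 1.5-fold among receptors past the filter. No setting could change these counts, so they lend no further weight to them. The largest log2 ratio of a receptor was 0.74 (Adra2b), under 2-fold, and added FPKM only shrinks ratios. Past the filter the largest was 0.35 (Adrb1), under 1.5-fold. The median log2 ratio of the receptors lay between 0.17 and 0.26 over these settings, the highest with no filter, which lets in the α2 genes and Adra1b. The sign of each of the 9 log2 ratios could not change under the 6 settings that bear on it. An equal amount added to both groups keeps a sign. With summed loci or loci of 1 name the receptor values are the same, since each member has 1 locus that names no other gene. The rescalings shifted ratios by 0.01, less than the smallest ratio (0.02, Adra1a). With 0.1 FPKM added, 2 of the 9 moved by 0.1 or more on the log2 scale (Adra2b to 0.53 and Adra2c to 0.47), and with 1 FPKM added 4 did, the α2 genes and Adrb1 (0.24). The other 4 settings could not move any of them by that much. These settings used the same single locus or shifted every ratio by 0.01. The Gs over Gi difference was 0.09 with 1 FPKM added and 0.25, a setting chosen after seeing the data, with sums over all receptors compared. Both rescalings shifted all ratios by 0.01. For the signalling genes and lists, alternatives chosen after seeing the data gave 902 values, of which 837 stayed within 0.1 or within 1.5 times a count, 65 moved further and 0 changed sign where past 2-fold. With 1 FPKM added, Mc5r, Pde4c and Ddc were no longer past 2-fold.

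No paired analysis was possible because the table holds 1 value per group, and leaving out each replicate was not run for the same reason. Depth per library is not known from these values, so the receptors under 1 FPKM are the least certain.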
